A study of Mus musculus with 4 samples.

Results

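The clustered protocadherins are cell surface adhesion proteins encoded by 3 neighbouring gene clusters, alpha, beta and gamma, on mouse chromosome 18. Each alpha and gamma gene has a variable first exon with its own promoter, and this exon is spliced to constant exons that all genes of its cluster share. Beta genes consist of a single exon and have no constant part. Single neurons choose a few of these promoters, and the proteins on a cell bind the same isoforms on a neighbouring membrane, which lets the branches of a neuron recognise their own kind. The last genes of the alpha and gamma clusters, called C-type, are known to be used more regularly than the other isoforms, which are called alternate here.

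The members were the protein-coding rows of the table whose symbol is Pcdha, Pcdhac, Pcdhb, Pcdhga, Pcdhgb or Pcdhgc followed by a number, which gave 53 of 20421 genes. They comprised 12 alpha genes (10 alternate and 2 C-type), 21 beta genes and 20 gamma genes (11 of group A, 6 of group B and 3 C-type). In the files' coordinates, which match GRCm38, the alpha members lay between 36930184 and 37187661, the beta members between 37294812 and 37524479 and the gamma members between 37661793 and 37841873, all on the plus strand. The start and end of 53 members equalled those of GENCODE release M21. That annotation holds 58 genes of these names, and of the 5 others Pcdhb1, Pcdha4, a second gene named Pcdha11 and Pcdhga10 were not analysed here, while Pcdhgb8 has a row as a polymorphic pseudogene and is no member. The row named Pcdha11 started 117 bases from the RefSeq start of Pcdha10 and 5655 bases from that of Pcdha11, so it is called by the table's name without certainty about the isoform.

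RNA from brains of C57BL/6 embryos at E15 was sequenced in WT mice and in mice labelled FOXM1f/+;Nestin-Cre, where Nestin-Cre is a recombinase driver active in neural progenitors and FOXM1 is a transcription factor of the cell cycle. The title of the series names the human FOXM1 gene, and how the FOXM1f allele was built is not stated in the sources used here. GEO lists 2 samples for each genotype, the series' own text speaks of triplicates, and the table has 1 column of reads per genotype that names no sample, so a value is that of 1 library and whether it holds 1 embryo or a pool is unknown. Titles of the samples labelled WT name nestin in one and foxm1 in the other, so controls may carry one allele or the other. Below, the FOXM1f/+;Nestin-Cre column (17856653 reads) is the transgenic library and the other (17543705 reads) the WT library. The row of mouse Foxm1, which does not show the level of a human transcript, had 1289 reads in the transgenic and 1139 in the WT library, and the libraries differed in sex content, with 9628 against 5 reads of Xist. Of the forebrain markers, Tbr1 had 5782 and 5549 reads and Bcl11b 6387 and 6268, so both libraries held forebrain RNA. No difference below has a replicate check. Each ratio carries an exact 95% interval, which covers counting error alone.

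The arrangement of exons sets what a row can count. In GENCODE M21, the share of a gene's exonic bases that no other gene covers had a median of 46.4% in alpha, 54.8% in gamma and 100% in beta members. Reads in bases covered by several genes appear to be missing from the table: of 148 protein-coding genes with no base of their own on either strand, 5 have a row, against 72.7% of the 21095 genes with at least 500 own bases. Thus an alpha or gamma row here mostly reads the variable exon, and RNA of the constant exons was not measured. Pcdhga10 has 0 own bases by this measure and Pcdha4 has 404. Pcdhgc3, with 1821 own bases, loses part of its first exon to the antisense gene BC037039, which had 40 and 45 reads. Levels between genes are therefore given as CPM, the reads of a gene scaled to the library's total, per kb of own bases.

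Per kb of own bases, gamma members had the highest median level and alpha members the lowest, in both libraries. The median over gamma members was 1.40 CPM per kb in the transgenic and 1.93 in the WT library, over beta members 0.739 and 0.575, and over alpha members 0.302 and 0.349. The members ranged from 0.045 to 14.3 CPM per kb in the transgenic and from 0.0687 to 13.9 in the WT library. Pcdhgc3, a C-type isoform known to promote dendrite branching in cortical neurons, stood at the top in both, with 14.3 and 13.9 CPM per kb. If the bases under its antisense neighbour are kept, Pcdhgc3 had 7.72 and 7.47 CPM per kb and still stood highest. By bases free on both strands, Pcdhgb6 followed in the transgenic library with 4.10 CPM per kb and Pcdhga11 in the WT library with 5.40, although the value of Pcdhga11 rests on 1256 own bases. With the bases under antisense genes kept, Pcdhga11 had 2.57 CPM per kb in the WT library and Pcdhgb6, at 4.10 and 4.07, came second in both. At the low end, Pcdha1 had 0.045 and 0.0687 CPM per kb from 2 and 3 reads.

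**Figure D1:**
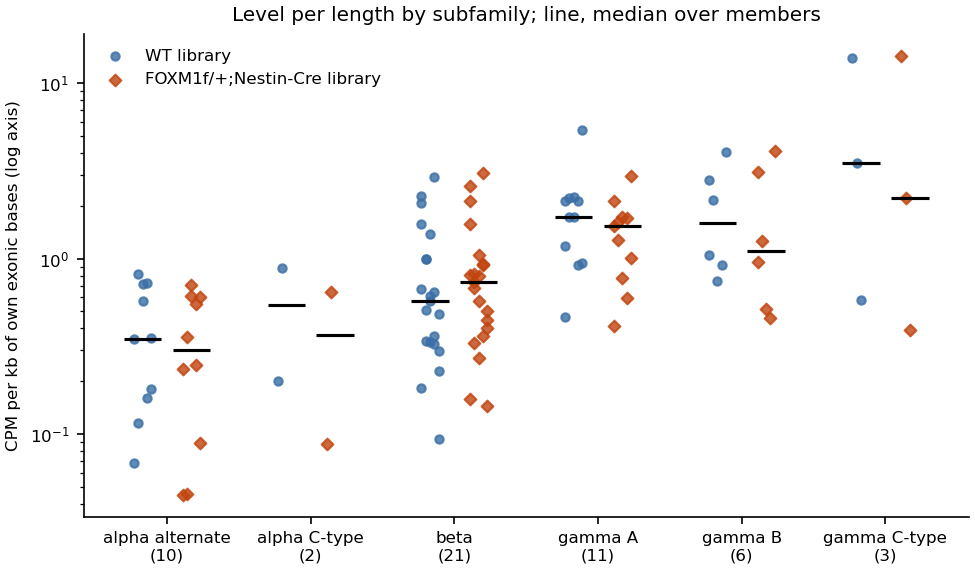
Each point is 1 member, with its level in CPM per kb of own exonic bases on a log axis, by subfamily (number of members in brackets). Circles are the WT library, diamonds the transgenic library and black lines medians over members. The medians of the gamma groups lie above those of alpha and beta in both libraries, while single members overlap. Pcdhgc3 is highest, at 14.3 in the transgenic and 13.9 in the WT library.

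Few genes carried much of each cluster's reads. Pcdhgc3 held 26.0% of gamma reads in the transgenic and 21.1% in the WT library, and with Pcdhgb6, Pcdhgc4 and Pcdhga12 the share was 52.9% and 47.3%. Pcdhb20, Pcdhb17, Pcdhb22 and Pcdhb7 held 51.2% and 52.2% of beta reads. In alpha, Pcdhac2, Pcdha9, Pcdha3 and Pcdha5 held 63.0% and 59.4%. The rank of members was largely kept between libraries, with a Spearman correlation across the 53 members of 0.904, given as a description since gene length and cell makeup are shared by both values of a gene. Levels per kb showed no strong order along the chromosome within a cluster, with Spearman correlations against position of 0.22 over 12 alpha, -0.02 over 21 beta and 0.36 over 20 gamma members.

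The 3 clusters did not differ alike between the genotypes. Summed gamma reads were 1791 in the transgenic and 2102 in the WT library, or 100.3 against 119.8 CPM and 1.19-fold lower (1.12 to 1.27). Summed alpha reads were 184 and 224, which was 1.24-fold lower (1.01 to 1.51). Summed beta reads were 1386 and 1277, or 77.6 against 72.8 CPM, a ratio of 1.07 (0.988 to 1.15) whose interval spans 1. On the authors' scale, gamma and alpha thus lay lower in the transgenic library and beta did not. With RLE scaling the alpha interval came to span 1 (1.22-fold lower, 0.997 to 1.49) and the beta interval to lie above 1 (1.09, 1.01 to 1.17), while gamma stayed lower (1.17-fold, 1.101 to 1.25).

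The makeup of the family needs no scaling of the libraries and compares the clusters with each other, not with other genes. By exact Clopper-Pearson intervals, beta genes gave 41.2% of the transgenic library's member reads (39.6 to 42.9) and 35.4% of those in WT (33.9 to 37.0). Gamma genes gave 53.3% (51.6 to 55.0) and 58.3% (56.7 to 59.96), and alpha genes 5.47% (4.73 to 6.30) and 6.22% (5.45 to 7.06). The number of beta reads per gamma read was 0.774 against 0.608, a ratio of 1.27 (1.15 to 1.41). Alpha reads per gamma read were 0.103 against 0.107, a ratio of 0.964 (0.781 to 1.19) whose interval spans 1. The contrast of beta with gamma thus lay beyond counting error, without showing which of them differed.

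**Figure D2:**
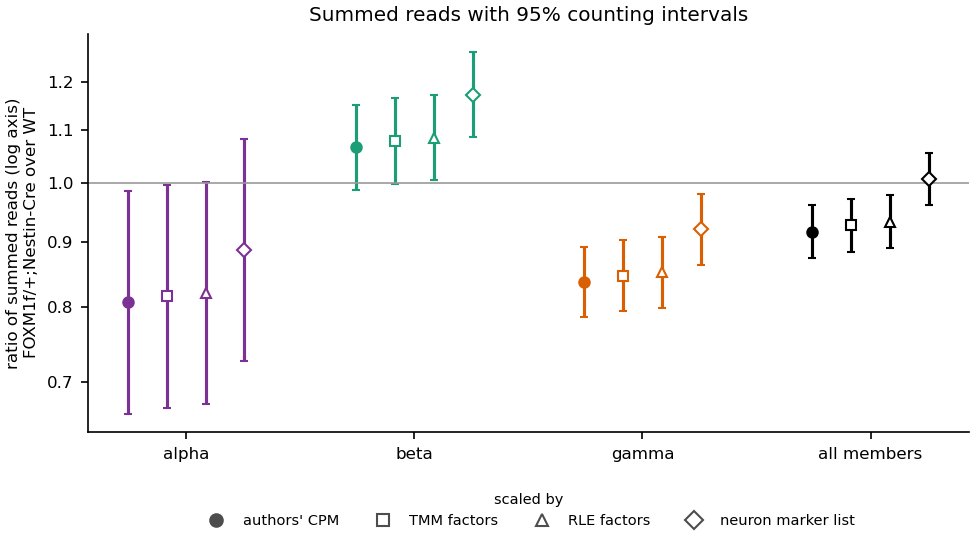
Ratio of summed reads (transgenic over WT, log axis) for each cluster and all members, with 95% counting intervals; marker shapes are 4 ways of scaling the libraries. Gamma lies below 1 under each scaling (0.837 with the authors' CPM), beta lies above gamma under each, and all members together move from 0.917 to 1.01 when the neuron markers are set equal.

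Markers of neurons differed in the same direction as the gamma and alpha sums. The 14 neuron markers summed to 141479 and 149866 reads, 1.08-fold lower in the transgenic library (1.07 to 1.09), with 11 of 14 intervals below 1 and 1 above. The 10 markers of maturing synapses were 1.17-fold lower (1.15 to 1.19), with 9 intervals below 1 and 1 above, and the 10 markers of radial glia and other progenitors were 1.21-fold higher (1.197 to 1.23), with 7 above 1. In such bulk RNA, fewer cells of a type cannot be told apart from less RNA per cell. When the libraries are scaled so that the median neuron marker is equal, which moves the median log2 ratio of all genes by 0.14, gamma was 1.09-fold lower (1.02 to 1.16), alpha 1.13-fold lower (0.923 to 1.38) and beta 1.17-fold higher (1.09 to 1.27). The sum over all 53 members, 3361 against 3603 reads and 1.09-fold lower (1.04 to 1.14) on the authors' scale, was 1.01-fold higher under this scaling (0.961 to 1.06).

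Gene by gene, 42 members reached a mean of 1 CPM and 11 did not, of which 7 were alpha and 4 beta genes. Among the 42, 2 were at least 2-fold higher in the transgenic library (4.76%, against 0.522% of all 14557 genes at this minimum) and 2 at least 2-fold lower (4.76%, against 1.83%). Clustered protocadherins are read at low counts, where such ratios are more frequent: between 1 and 10 CPM, 1.58% of 4419 genes were 2-fold higher and 5.57% 2-fold lower, against 2 and 2 of 38 members. At a fold of 1.5, 2 members were higher and 8 lower, against 2.53% and 5.23% of genes at the same minimum and 7.58% and 15.3% of those between 1 and 10 CPM. With no minimum, 2 of 53 members were 2-fold higher and 5 were 2-fold lower, against 4.77% and 9.53% of the 20421 genes. Counting intervals lay above 1 for 2 of the 42 members (4.76%, against 16.5% of genes and 8.01% of those between 1 and 10 CPM) and below 1 for 7 (16.7%, against 19.2% and 15.0%). The ratio was below 1 in 27 of the 42, against 51.6% of genes and 56.6% of those between 1 and 10 CPM. The median log2 ratio of the 42 was -0.14, against -0.01 over the genes at this minimum and -0.08 over those between 1 and 10 CPM. The 7 lower intervals were 1 alpha and 6 gamma genes, and the 2 higher ones were both beta genes.

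**Figure D3:**
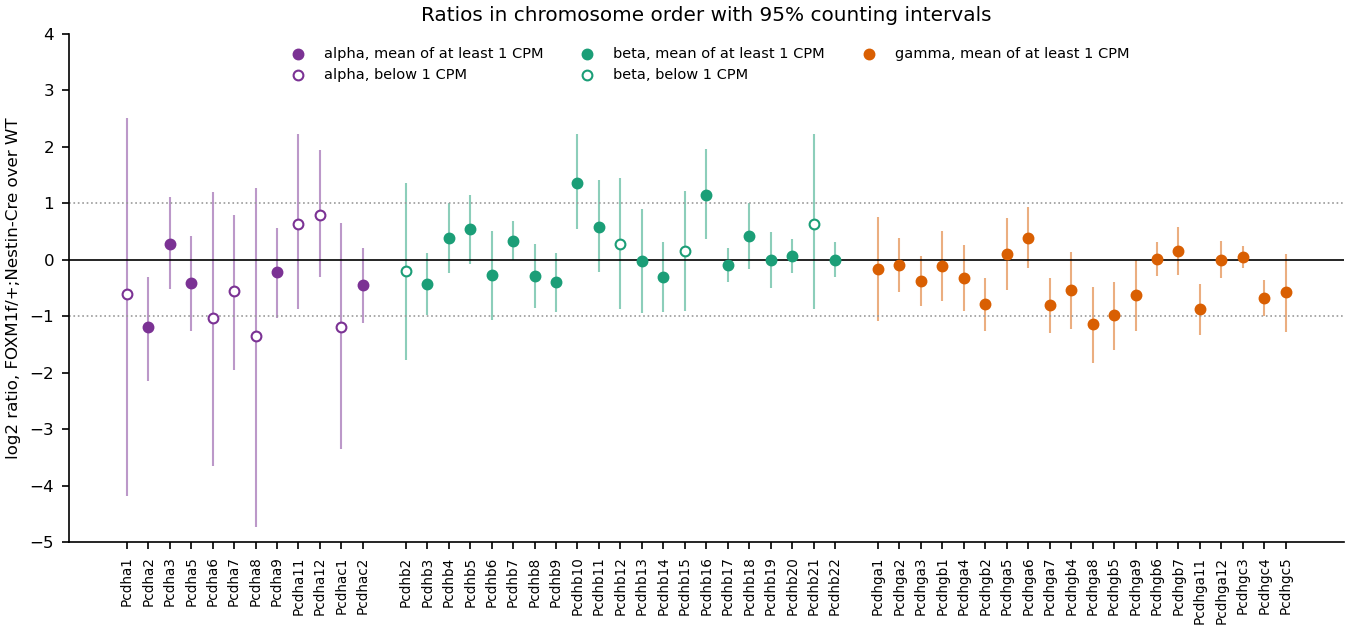
Log2 ratio (transgenic over WT) of each of the 53 members in chromosome order with its 95% counting interval; open points have a mean below 1 CPM and dotted lines mark a 2-fold difference. Pcdhb10 and Pcdhb16 lie above the upper line, Pcdha2 and Pcdhga8 below the lower one, and alpha intervals are the widest because their reads are few.

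Alpha protocadherins were first described as receptors enriched at synapses, and their shared cytoplasmic tail binds the WAVE complex, which drives actin branching. Their rows held between 2 and 47 reads in a library, so single ratios are imprecise. Of the 5 over the minimum of 1 CPM, the ratio was below 1 in 4. Pcdha2 had 16 reads in the transgenic and 36 in the WT library, so 0.896 against 2.05 CPM and 2.29-fold lower (1.24 to 4.42). It was the only alpha gene whose interval excluded 1. Pcdha9 had 27 and 31 reads and Pcdha5 had 23 and 30, both with intervals that span 1. Pcdha3 had 31 and 25 reads, a ratio of 1.22 (0.696 to 2.15), the only one of the 5 above 1. Among the alpha genes under the minimum, Pcdha12 had 21 and 12 reads, the row named Pcdha11 had 11 and 7, Pcdha7 had 9 and 13, Pcdha6 had 3 and 6, Pcdha8 had 2 and 5 and Pcdha1 had 2 and 3. All 6 of these intervals span 1.

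The C-type alpha genes sit next to the constant exons. Pcdhac2, which serotonergic axons need to spread evenly, was the alpha gene with the most reads in both libraries. It had 35 reads in the transgenic and 47 in the WT library, 1.96 against 2.68 CPM and a ratio of 0.732 (0.458 to 1.16). Serotonergic markers were scarce: of the 4 listed, Ddc, Slc6a4 and Tph2 had rows, with 46 reads in sum in the transgenic and 28 in the WT library. Pcdhac1, which needs a partner isoform to reach the cell surface, had 4 and 9 reads, a ratio of 0.437 (0.0983 to 1.56). Neither C-type alpha gene differed beyond counting error.

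Beta protocadherins carry the same adhesive ectodomain without a shared tail. The 3 with the most reads hardly differed between the libraries. Pcdhb20 had 195 and 183 reads, Pcdhb17 had 177 and 186 and Pcdhb22 had 174 and 171. Their ratios were 1.05 (0.851 to 1.29), 0.935 (0.757 to 1.15) and 0.9997 (0.805 to 1.24). Per kb of own bases, Pcdhb20 at 3.07 and 2.93 CPM was the highest beta gene in both libraries.

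The beta genes that differed were of low level. Pcdhb10 had 47 reads in the transgenic and 18 in the WT library, 2.63 against 1.03 CPM and 2.57-fold higher (1.46 to 4.69). Pcdhb16 had 47 and 21 reads, 2.63 against 1.197 CPM and 2.199-fold higher (1.29 to 3.87). No other beta interval excluded 1 on the authors' scale. Pcdhb7, with 163 and 127 reads, came nearest, at a ratio of 1.26 (0.994 to 1.60). Its interval lay above 1 when the libraries were scaled by TMM or RLE factors. Pcdhb5 had 59 and 40 reads, a ratio of 1.45 (0.954 to 2.22).

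Among the remaining beta genes, ratios fell on both sides of 1. Pcdhb3 had the lowest of those over the minimum, 50 and 66 reads and a ratio of 0.744 (0.505 to 1.09). Pcdhb9 had 57 and 74 reads and Pcdhb8 had 51 and 61. Pcdhb18 had 61 and 45 reads, Pcdhb4 had 53 and 40 and Pcdhb11 had 35 and 23. Pcdhb6, Pcdhb13, Pcdhb14 and Pcdhb19 had ratios between 0.809 and 0.996, and each of these intervals spans 1. In all, 8 of the 17 beta genes over the minimum had ratios above 1 and 9 below, with a median log2 ratio of -0.00. Pcdhb2, with 8 and 9 reads, had the lowest mean CPM of the beta genes. The means of Pcdhb12, Pcdhb15 and Pcdhb21 were also under 1 CPM.

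Gamma protocadherins are needed for the self-avoidance of neurites, for dendrite branching and for the survival of neurons. All 20 gamma members passed the expression minimum. The ratio was below 1 in 14 of them and above 1 in 6, with a median log2 ratio of -0.35, and 6 intervals lay below 1 and none above. That is 30.0% of gamma members, beside the 19.2% and 15.0% of genes given above. Gamma A genes summed to 688 and 850 reads, 1.26-fold lower (1.14 to 1.39), and gamma B genes to 468 and 547 reads, 1.19-fold lower (1.05 to 1.35).

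In group A, Pcdhga8 had 29 reads in the transgenic and 63 in the WT library, 1.62 against 3.59 CPM and 2.21-fold lower (1.40 to 3.56). Pcdhga11 had 66 and 119 reads, 3.70 against 6.78 CPM and 1.84-fold lower (1.35 to 2.52). Pcdhga7 had 58 and 100 reads, 1.75-fold lower (1.26 to 2.47). These 3 were lower beyond counting error, while the group A gene with the most reads was not. Pcdhga12 had 157 and 154 reads, a ratio of 1.002 (0.797 to 1.26). Pcdhga6 had the largest ratio of the group, 72 and 54 reads and 1.31 (0.908 to 1.90). Pcdhga1 had the lowest mean CPM, with 21 and 23 reads. Pcdhga2, Pcdhga3, Pcdhga4, Pcdhga5 and Pcdhga9 had ratios between 0.649 and 1.08 with intervals that span 1.

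In group B, Pcdhgb5 had 38 reads in the transgenic and 74 in the WT library, 2.13 against 4.22 CPM and 1.98-fold lower (1.32 to 3.01). Pcdhgb2 had 62 and 105 reads, 1.72-fold lower (1.25 to 2.40). The 2 group B genes highest by mean CPM had intervals that span 1. Pcdhgb6 had 188 and 183 reads, a ratio of 1.01 (0.819 to 1.24), and Pcdhgb7 had 102 and 90, a ratio of 1.11 (0.830 to 1.495). Pcdhgb4 had 33 and 47 reads and the lowest mean CPM of the group, and Pcdhgb1 had 45 and 48. The pseudogene Pcdhgb8, which is no member, had 20 and 52 reads and was 2.65-fold lower (1.55 to 4.68).

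Of the C-type gamma genes, Pcdhgc4 was lower and the other two had intervals that span 1. Pcdhgc3 had 466 reads in the transgenic and 443 in the WT library, 26.1 against 25.2 CPM and a ratio of 1.03 (0.906 to 1.18). Pcdhgc4, the isoform on which neuronal survival depends, had 137 and 215 reads, which is 7.67 against 12.3 CPM and 1.60-fold lower (1.28 to 1.99). Pcdhgc5, an isoform that increases late in brain development, had 32 and 47 reads, a ratio of 0.669 (0.413 to 1.07). As a group the 3 summed to 635 and 705 reads, 1.13-fold lower (1.01 to 1.26). Left out of the gamma sum, Pcdhgc3 moved the log2 ratio of the remaining 19 genes to -0.35 from -0.26.

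**Figure D4:**
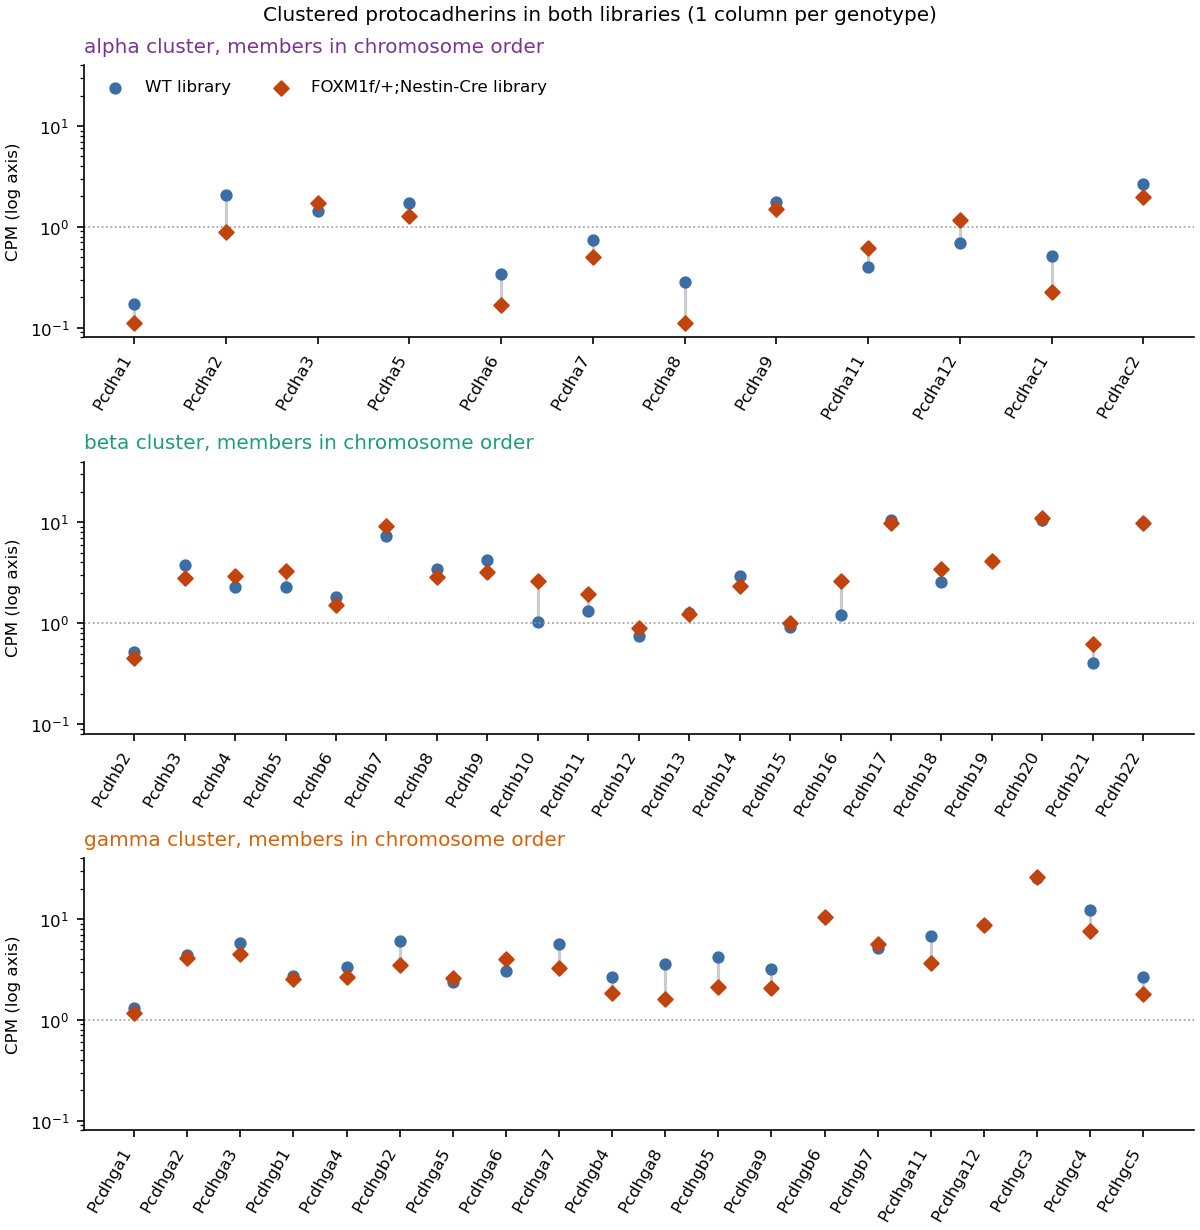
CPM of each member (log axis) in the WT library (circles) and the transgenic library (diamonds), 1 panel per cluster in chromosome order; the dotted line is 1 CPM. In gamma, the diamonds lie below the circles from Pcdhga7 to Pcdhga9, while Pcdhgb6, Pcdhga12 and Pcdhgc3 nearly coincide.

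Along the gamma cluster, 3 of the 6 genes with intervals below 1 fell in a stretch of 5 neighbours. The 5 consecutive members Pcdhga7, Pcdhgb4, Pcdhga8, Pcdhgb5 and Pcdhga9 had ratios of 0.570, 0.690, 0.452, 0.505 and 0.649, of which those of Pcdhgb4 and Pcdhga9 have intervals that span 1. The next members Pcdhgb6, Pcdhgb7 and Pcdhga11 had 1.01, 1.11 and 0.545, and Pcdhgb2 and Pcdhgc4, also lower, lie outside the stretch. This stretch was picked after its values were seen and has no test. Over the 17 group A and B genes, ratio and position had a Spearman correlation of -0.09, so there was no steady trend along the cluster. The first 8 of them, Pcdhga1 to Pcdhga6, were 1.16-fold lower in sum (1.02 to 1.32) and the last 9, Pcdhga7 to Pcdhga12, 1.27-fold lower (1.15 to 1.41). In beta, the first 10 genes had a summed ratio of 1.103 (0.975 to 1.25) and the last 11 one of 1.04 (0.946 to 1.15).

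The authors' deposited table marks 10 members as significant, all of them over the minimum. In the authors' deposited table, Pcdhb10 and Pcdhb16 are marked up, which is 4.76% of the 42 members beside 1.96% of genes at that minimum. The authors' deposited table marks 8 members down (19.0%, beside 4.31% of genes), namely Pcdha2, Pcdhgb2, Pcdhga7, Pcdhga8, Pcdhgb5, Pcdhga9, Pcdhga11 and Pcdhgc4. Between 1 and 10 CPM, 12.3% of genes are marked down there and 5.68% up. Of the marked genes, Pcdhga9 (37 against 56 reads) is the only one whose counting interval here spans 1, at 0.649 (0.417 to 1.001), and its adjusted p-value in the authors' deposited table is 0.0859. The largest adjusted p-value among the other 9 in the authors' deposited table is 0.0160, for Pcdha2. These p-values compare 1 column with 1 column and hold no spread between animals.

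Non-clustered delta protocadherins, the family most like the members, have their genes spread over several chromosomes and are expressed by region rather than by random choice. The 10 delta genes summed to 5842 transgenic and 6269 WT reads, 1.09-fold lower (1.05 to 1.13), close in size to the 1.09-fold of all clustered members. Their median log2 ratio was -0.15, with 5 of 10 intervals below 1 and none above, against 19.2% and 16.5% of genes averaging 1 CPM or more. Pcdh8, which is regulated by neuronal activity, was 1.32-fold lower (1.21 to 1.45) and Pcdh9 1.26-fold lower (1.09 to 1.47), while Pcdh10 had 1376 and 1351 reads. Pcdh7, Pcdh11x and Pcdh20 were 1.17-fold (1.01 to 1.35), 1.28-fold (1.04 to 1.56) and 1.35-fold (1.01 to 1.80) lower. Per kb of own bases, the median delta gene had 3.09 and 3.34 CPM, above the gamma medians of 1.40 and 1.93. A test of clustered against delta genes was not possible with 1 library per genotype.

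Promoter choice in the alpha and gamma clusters rests on the DNA-binding factor Ctcf and on cohesin, which loops promoters to distant enhancers, and DNA methylation silences unused promoters. Of 22 such regulators, 8 had intervals above 1 (against 16.5% of genes averaging 1 CPM or more), 2 below (against 19.2%) and 12 spanned 1, with a median log2 ratio of 0.05, and none differed 2-fold. Of the genes for loading cohesin, Mau2 was 1.12-fold lower (1.05 to 1.19) and Nipbl 1.11-fold higher (1.02 to 1.21). The DNA-binding factor Zfp143 was 1.23-fold higher (1.08 to 1.40). Ctcf itself had 2377 and 2362 reads, a ratio of 0.989 (0.934 to 1.05). The cohesin subunit Stag2 was 1.17-fold higher (1.08 to 1.26) and the core subunits Rad21, Smc1a and Smc3 were 1.06-fold (1.02 to 1.11), 1.07-fold (1.02 to 1.13) and 1.09-fold (1.02 to 1.15) higher. Dnmt3b, the methyltransferase that methylates these promoters in the embryo, had 128 and 94 reads and was 1.34-fold higher (1.02 to 1.77). Smchd1, a silencer of the clusters, had a ratio of 1.01 (0.931 to 1.11). Dividing cells, whose 6 markers were 1.27-fold higher in sum (1.24 to 1.30) with 6 of 6 intervals above 1, also express cohesin, and their part in these ratios was not tested. The libraries also differed in sex content, as given above, which cannot be told apart from genotype here.

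Of 23 genes for proteins that cut protocadherins or carry their signal, 1 had an interval above 1 (against 16.5% of genes), 8 below (against 19.2%) and 14 spanning 1, with a median log2 ratio of -0.04. Adam10, the protease that sheds the ectodomain, had 1528 and 1487 reads, with an interval that spans 1. Psen2 was 1.48-fold lower (1.17 to 1.86). The kinase Ptk2, which alpha and gamma tails bind and inhibit, had a ratio of 1.04 (0.970 to 1.11). The kinase Fyn, which was found to bind alpha protocadherins, was 1.13-fold lower (1.08 to 1.18). Of the WAVE pathway, the GTPase Rac1 was 1.29-fold lower (1.24 to 1.35) and Wasf1 1.19-fold lower (1.11 to 1.27). Cyfip2 and Nckap1 were lower by less, 1.08-fold (1.02 to 1.13) and 1.07-fold (1.01 to 1.12). Cyfip1, Abi1, Abi2 and Brk1 had ratios between 0.932 and 1.04, with intervals that span 1.

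**Figure D5:**
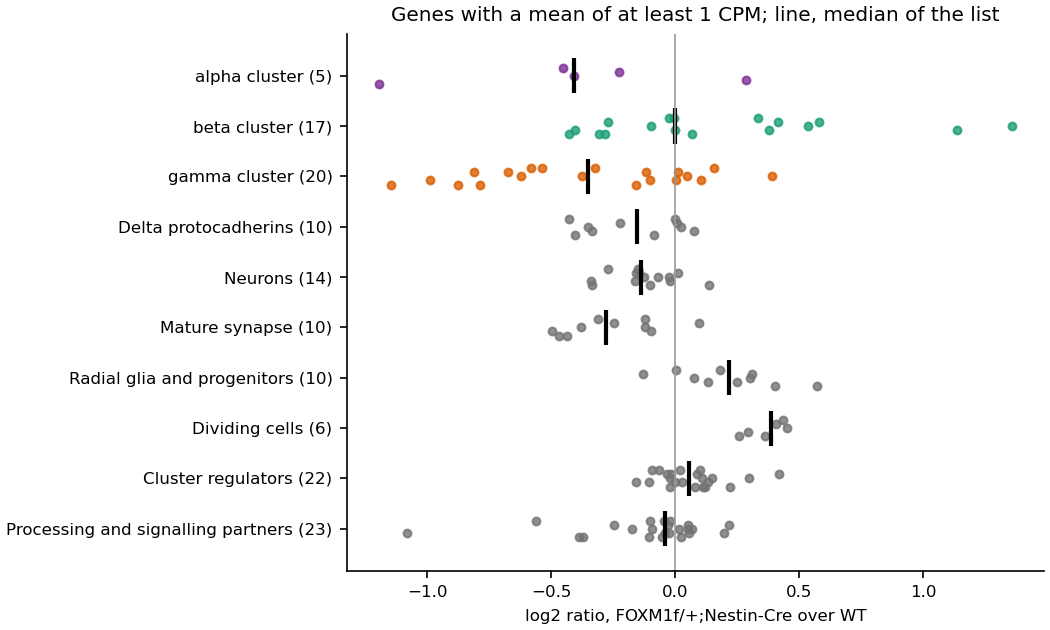
Log2 ratio (transgenic over WT) of every gene averaging 1 CPM or more in the 3 clusters and in related lists (number of genes in brackets); black lines are list medians. The gamma median (-0.35) lies left of the delta (-0.15) and neuron (-0.14) medians. The mature synapse median (-0.28) is the nearest to it among the related lists. The beta median lies at -0.00 with Pcdhb10 and Pcdhb16 far to the right.

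Among markers of other cell types, those of choroid plexus differed most. The 4 choroid plexus markers with rows summed to 221 and 12120 reads, 55.8-fold lower (48.9 to 64.1), with 4 of 4 intervals below 1 and none of the 4 at 0 reads. The 4 meningeal markers were 2.40-fold lower in sum (1.98 to 2.93), the 5 oligodendrocyte precursor markers 1.25-fold lower (1.16 to 1.35), the 5 astroglial markers 1.36-fold lower (1.29 to 1.43) and the 4 microglial markers 1.49-fold lower (1.29 to 1.72). The 4 endothelial and pericyte markers were 1.102-fold lower (1.04 to 1.17). The 4 red blood cell markers went the other way, with 11577 against 5261 reads, 2.16-fold higher (2.09 to 2.23) and 4 of 4 intervals above 1. The part of these cell types in the differences of the clusters was not tested. The 5 interneuron markers had a summed ratio of 0.994 (0.972 to 1.02).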

How the data were processed

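The deposited table gives raw read counts per gene and CPM in 1 column per genotype, per the file headers. Each deposited CPM is the count divided by a library total (17859653 and 17547268 reads), with 0.5 reads in place of a 0. The deposited fold column is the ratio of the CPM columns, the deposited log2 column its logarithm, and no source used here gives the test behind the deposited p-values. Bowtie2 2.2.3, TopHat2 2.0.12 and HTSeq 0.6.0 are named in the submitters' processing notes together with mm9, whereas the coordinates match GRCm38; the annotation release, strand setting and handling of reads with several map positions are not stated there, so ratios of single genes, which are close paralogs, are uncertain.

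Ratios are FOXM1f/+;Nestin-Cre over WT with exact conditional (Clopper-Pearson) 95% intervals for 2 Poisson rates. No molecular identifiers are named in the sources, so several reads may be copies of one molecule. A 2-fold ratio was called in genes averaging 1 CPM or more. Exonic bases of a gene's own were taken from GENCODE M21 over both strands. Members, lists and rules were chosen with earlier results of these data known. Named were the C-type members, in each other subfamily the 2 highest and the lowest by mean CPM and the extreme ratios, every member with an interval off 1, and other members to account for the rest. From the related lists, genes with intervals off 1 were named. Ctcf, Nipbl, Smc1a, Smc3, Smchd1, Dnmt3b, Adam10, Psen2, Ptk2 and Pcdh10 were added after their values were seen. Symbols were matched also through older names in RefSeq, and Fev and Kcnj13 have no value here. Some genes of the lists are not reported here by name. With 1 column per genotype, edgeR's quasi-likelihood test could not be run. Intervals and calls were tried on simulated Poisson counts, which hold counting error alone and no spread between animals. Alternatives were TMM and RLE scaling, scaling to neuron markers, other minimums, a fold of 1.5, and left-out members. Python 3.11.15, NumPy 2.4.6, pandas 2.3.3, SciPy 1.17.1, Matplotlib 3.10.9, R 4.3.3 and edgeR 4.0.16 were used. RNA for the libraries came from brain, per the labels' protocols.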

Additional observations from a re-analysis of the deposited data

How the results depend on the processing

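No paired analysis was possible because the table has 1 column per genotype and no sample numbers, and no replicate could be left out for the same reason. TMM and RLE scaling, which moved log2 ratios by 0.02 and 0.03, left the direction of the summed reads as it was for each cluster and for all members; the alpha interval came to span 1 with RLE scaling (1.22-fold lower, 0.997 to 1.49) and the beta interval came to exclude 1 (ratio 1.09, 1.01 to 1.17). Scaling to the neuron markers changed more. The log2 ratio of summed reads became 0.011 for all members, a reversed direction, 0.23 for beta and -0.12 for gamma, and the median log2 ratio became -0.00082 for all members, 0.14 for beta and -0.21 for gamma. Intervals above and below 1 then numbered 4 and 7, against 2 and 7 on the authors' scale and 3 and 7 with TMM or RLE scaling, with the same 7 genes below in each. Counts of 2-fold members depended on the minimum. Without a minimum 5 were lower; with at least 1 CPM in both libraries 1 was lower (Pcdha2, at 0.896 CPM, drops out); at 10 CPM or more, 0 of 4 members were higher and 0 lower, among which the median log2 ratio was 0.030, also over the 2 gamma genes. With a fold of 1.5, 8 were lower, and by counting interval 7. The gamma log2 ratio is -0.26 by summed reads, -0.35 by the median and -0.35 in the sum without Pcdhgc3. Keeping bases that a gene on the other strand also covers moved the WT medians to 0.311 CPM per kb in alpha and 0.509 in beta, an alternative chosen after seeing the data. Depth limits the alpha genes most: 7 of 12 were under a mean of 1 CPM, where differences of 2-fold were not detectable at this depth.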
